A study of Mus musculus with 9 samples.

Results

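The data describe the resting forebrain of untreated mice as read by 3 of the 9 Affymetrix U74Av2 arrays of a study of antipsychotic drugs. Genes were taken from probe sets that carried exactly 1 gene symbol and were not Affymetrix controls, each gene was read by its probe set with the highest mean over the 3 arrays, and genes were ranked by that mean. This gave 8251 genes, from 10833 of 12488 probe sets. No drug effect was examined.

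The animals were male C57BL mice that received no drug during the 4 weeks of the study, after 2 weeks of acclimatisation, and were housed singly. Their age is given as 4 weeks, without saying at which point of the study. Each array held RNA of 1 animal without pooling, 3 animals were selected from the 10 of the untreated group by a rule that is not given, and the cerebellum had been removed before freezing. The source and title name the right side of the forebrain, whereas the tissue entry names the left, so the side was not settled. The remaining 6 arrays, 3 from mice given clozapine at 12 mg/kg/day and 3 from mice given haloperidol at 1.6 mg/kg/day, were used here only to see how far animals of 1 group lay apart.

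The forebrain holds the cerebral cortex, hippocampus, striatum and thalamus, and its RNA comes from excitatory and GABA neurons, astrocytes, oligodendrocytes, microglia and cells of blood vessels. Neurons devote much of their transcription to the cytoskeleton of their processes, to synaptic vesicles and to mitochondrial energy supply, and glia add myelin proteins and enzymes of lipid and glutamate handling. Many proteins of these systems come from small families in which brain, muscle, liver and testis use different genes, so the choice of family member is one of the marks of a tissue.

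Values are log2 GCRMA signals as deposited. GCRMA is a background correction and summary of the probes of a set, and 1 unit is a factor of 2. A signal depends on how well the probes of a set bind as well as on the RNA, so an order of genes is an order of signal and not of transcript number or of transcripts per length. Array medians were 4.15, 4.19 and 4.11 in controls 1, 2 and 3. The correlation across probe sets was 0.9947 between controls 1 and 2, 0.987549 between controls 2 and 3 and 0.977655 between controls 1 and 3. The signal of Actb at its 3′ end exceeded that at its 5′ end by 1.48, 2.34 and 2.72, and the mean gap for Actb and Gapdh was 0.882, 1.46 and 1.73, so the gap was smallest in control 1 and largest in control 3. With 3 arrays in 1 group there is no contrast to test, and their number limits the precision.

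The 8251 genes fell into a large low class and a small bright one. Of all genes, 3239 (39.3%) had a mean under 4, and the median SD among animals there was 0.0158. A further 2727 genes (33.1%) lay from 4 to 7, 1970 (23.9%) from 7 to 10 and 315 (3.82%) at 10 or above. The median SD was 0.161, 0.227 and 0.197 in these classes, so the lowest class varied far less among animals than the others. Values under 4 lie near the background estimate, and genes there were not ordered by level. At or above 6 in all 3 animals were 36% of genes (2973), at or above 10 were 3.24% (267), and below 4 in all 3 were 38% (3134).

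The promoters of genes in these classes differed in base composition. Promoters are the RefSeq windows of build GRCm38.p6 from 250 bases before to 50 after a gene's start, matched by symbol, and 3 are shown because they span the contrast between a bright gene rich in CG, a bright gene with a TATA motif and a liver gene of low signal. Actg1, the cytoplasmic gamma actin, lies on chr11:120348446-120348745 on the minus strand, and capitals mark CG. Tubb2a, a beta tubulin of neurons, lies on chr13:34077959-34078258 on the minus strand, and Cyp2e1, a liver cytochrome P450, lies on chr7:140763569-140763868 on the plus strand. In Tubb2a and Cyp2e1, capitals mark TATAA.
Actg1: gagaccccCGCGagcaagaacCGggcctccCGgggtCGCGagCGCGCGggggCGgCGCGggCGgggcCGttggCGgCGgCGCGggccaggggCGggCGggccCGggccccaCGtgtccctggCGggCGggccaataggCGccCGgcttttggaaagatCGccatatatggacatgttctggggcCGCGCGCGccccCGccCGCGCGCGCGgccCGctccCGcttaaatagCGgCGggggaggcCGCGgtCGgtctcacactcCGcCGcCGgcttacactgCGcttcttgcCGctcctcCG
Tubb2a: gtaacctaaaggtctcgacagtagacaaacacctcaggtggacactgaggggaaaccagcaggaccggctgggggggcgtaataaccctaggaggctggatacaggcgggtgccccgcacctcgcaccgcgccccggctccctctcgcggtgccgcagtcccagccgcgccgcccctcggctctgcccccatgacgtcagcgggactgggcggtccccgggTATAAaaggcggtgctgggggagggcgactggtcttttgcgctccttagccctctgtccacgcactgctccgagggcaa
Cyp2e1: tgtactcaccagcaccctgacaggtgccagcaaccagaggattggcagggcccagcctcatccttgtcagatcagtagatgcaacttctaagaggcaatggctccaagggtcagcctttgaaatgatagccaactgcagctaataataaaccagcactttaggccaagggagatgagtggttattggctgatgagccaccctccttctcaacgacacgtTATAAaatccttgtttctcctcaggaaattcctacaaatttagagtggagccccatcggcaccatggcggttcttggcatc
The Actg1 window held 50 CG, an observed over expected CG ratio of 1.12, and its signal averaged 12.93. Tubb2a had a ratio of 0.743 with TATAA beginning 29 bases before the start and a mean of 11.43. Cyp2e1 held 4 CG, had a ratio of 0.217 with TATAA beginning 31 bases before the start and a mean of 2.48. These windows were picked by their features. Actg1 had the highest CG ratio among the 30 brightest genes, and Tubb2a was the brightest gene with TATAA. Cyp2e1 was the first gene of the liver list with TATAA and a mean under 4.

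CG-rich windows were more frequent among genes with signal. The share of windows with a CG ratio over 0.6 was 42.3% of 2498 for genes under 4, 73.0% of 2186 for genes from 4 to 7, 82.9% of 1642 for genes from 7 to 10 and 78.8% of 250 for genes at 10 or above. It was 36.4% of all 27025 windows in the table and 64.0% of the 6576 windows of genes on the array. The motif TATAA was searched on the gene's own strand in the window from 45 to 16 bases before the start. It occurred in 8.53%, 2.88%, 1.77% and 4.4% of windows in the same order of classes, against 4.23% of all windows. For the 100 brightest genes it was in 2.63% of 76 windows. The reverse complement, TTATA, occurred in 3.04%, 1.28%, 0.609% and 0.8%, against 1.97% of all windows. The motif was thus most frequent in the class under 4, and the bright class held it more often than the class below it. Matches of these letters are a description and not binding sites.

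**Figure D1:**
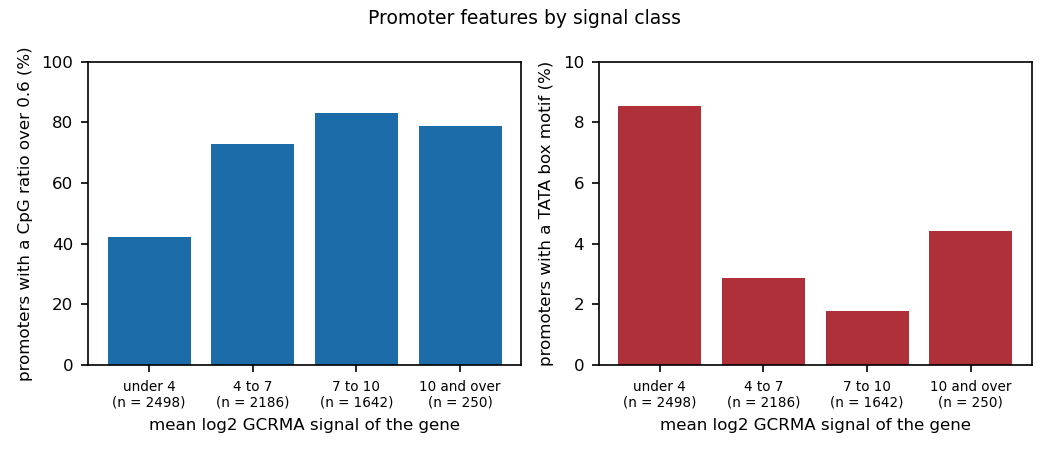
Promoter features by signal class, as percentages of promoters of the genes in each class, with the number of promoters under each bar. The share with a CG ratio over 0.6 rises from 42.3% under 4 to 82.9% from 7 to 10, and the share with TATAA is 8.53% under 4 and 4.4% at 10 or above.

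The genes with the highest signals had varied roles. Cpe, carboxypeptidase E, which trims peptide hormones and neuropeptides, led with 13.92, 14.02 and 14.30 in controls 1, 2 and 3. Basp1, a membrane-bound protein of growing axon endings, followed with 12.84, 13.46 and 13.51. Cox6c, a subunit of cytochrome c oxidase, read 13.14, 13.15 and 13.21. Cpe stood above every other gene in each animal, while Basp1 was lowest in control 1 and Cox6c lay within 0.0685 of itself. Eef1a1, which delivers aminoacyl-tRNA to the ribosome, read 13.19, 12.98 and 12.84. Snap25, a synaptic vesicle fusion protein, read 13.21, 12.93 and 12.82. Both had the same order, control 1 highest and control 3 lowest. Actg1 read 12.94, 12.96 and 12.88, Mbp, the myelin basic protein, 12.62, 12.45 and 12.45, and Gad1, which makes GABA from glutamate, 12.05, 12.36 and 12.34.

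The SD among animals for the first 30 genes ranged from 0.0376 for Cox6c to 0.531 for Matr3, a nuclear matrix protein, which read 11.86, 12.37 and 12.92. Neighbours in the order therefore often cannot be separated, as the 30th gene, Prkacb, a catalytic subunit of protein kinase A, averaged 12.16 and the 31st, Rpl7, a ribosomal protein, 12.15. Of the 100 brightest genes, 74 were among the 100 brightest in each of the 3 animals, and the median SD was 0.173. At the edge, the 100th and 101st genes averaged 11.24 and 11.23.

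By role, 16 of the 100 built the cytoskeleton or its motors, among them Actg1, Tuba1a and Stmn1. Kinases, phosphatases, G proteins and 14-3-3 proteins numbered 11, among them Gnas, the stimulatory G protein subunit, and Ppp3ca, a calcineurin subunit. Ribosome and translation genes numbered 9, mitochondrial energy genes 8 and genes of vesicles, endocytosis and the proton pump 6. Glial genes numbered 4, namely Mbp, Gja1, Sparcl1 and Apoe, and secretory genes 3, namely Cpe, Chgb and Penk. There were 3 reticulons, 2 chaperones and 38 genes outside these groups. The groups were drawn after the genes were known.

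Signals at the top were read by unusual probe sets more often than elsewhere. A suffix that marks a probe set matching several transcripts or made under relaxed rules occurred on 30 of the 100 brightest genes and 11 of the first 30, against 12.35% of all genes. Genes with such sets, for example Cpe, Rps24, Cox6c and Tuba1c, may include signal of near-identical copies.

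**Figure D2:**
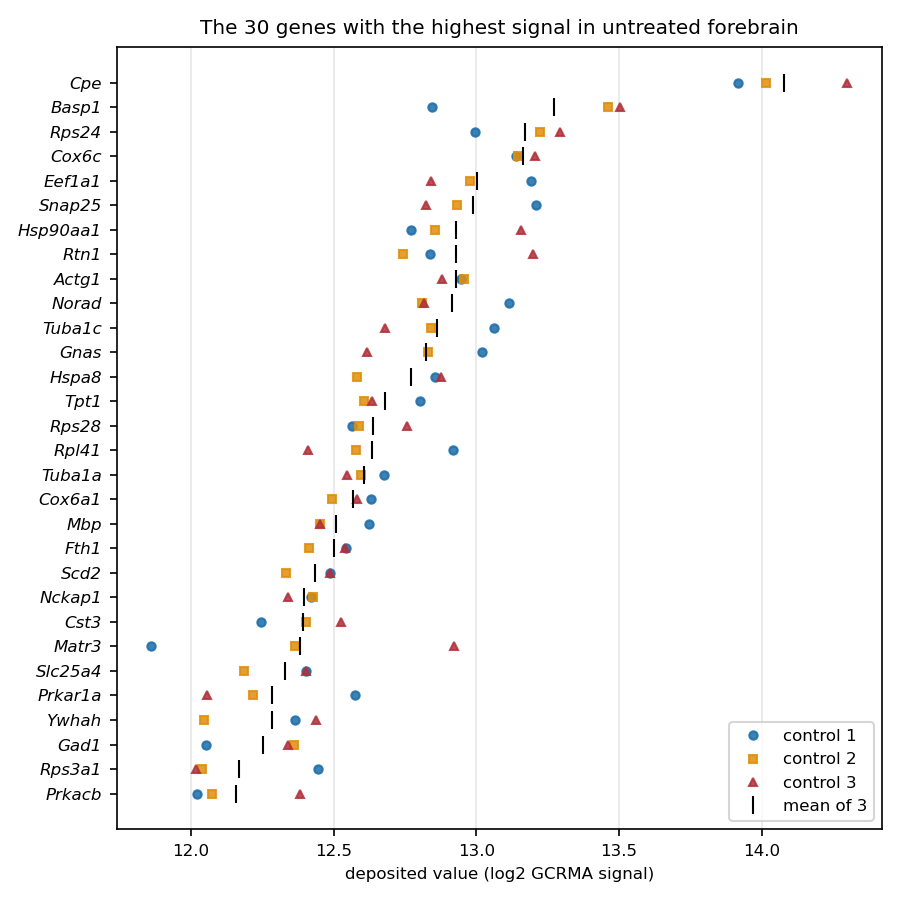
Deposited log2 signal of the 30 brightest genes in each of the 3 untreated animals, with the mean as a vertical bar. Cpe lies apart at the top, from 13.92 to 14.30, and Matr3 shows the widest spread, from 11.86 to 12.92.

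Probe sets of a single gene could differ by far more than animals did. For the 2073 genes with more than 1 set, the gap between the brightest and dimmest set had a median of 2.0, and it exceeded 3 for 718 genes (34.6%). Cox6c had sets averaging 13.16 and 1.04. Of 123 such genes whose brightest set was at 10 or above, 42 had another set under 4. A low value of 1 set thus does not show that the gene is silent. Several genes of proteins known to be abundant in brain had only low sets, picked here after their values were seen: Calm2, a calmodulin, read 3.48, 3.45 and 3.48, and Cnp, a myelin enzyme, 2.69, 2.67 and 2.68. Vdac1, the main channel of the mitochondrial outer membrane, read 1.82, 1.80 and 1.82.

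Cell type markers had more genes with signal than the array as a whole. Of 127 measured genes on 14 cell type lists, 68 (53.5%) were at or above 6 in all 3 animals, against the 36% of all genes, and 23 were below 4 in all 3. Their median was 6.62, against 4.97 for all genes. In bulk tissue, fewer cells of a type and less RNA per cell cannot be told apart.

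General neuronal genes were the brightest list. Of 15 measured, 13 were at or above 6 in all animals, with a median of 9.35 and array medians of 9.81, 9.30 and 9.01. Thy1, a neuronal surface protein, read 11.07, 10.81 and 10.91, and Syt1, the calcium sensor of vesicle release, read 10.98, 10.39 and 8.57. Control 3 was the lowest for Syt1. It was lower than control 1 for 11 of the 15, against 54.9% of genes with a mean of 6 or above and 42.8% of all genes, and its 3′ to 5′ gap was the largest, whose part in this was not tested.

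Excitatory and inhibitory neurons both had genes with signal. Of 11 cortical and hippocampal excitatory genes 5 (45.5%) passed 6 in all animals, near the 36% of all genes, and 2 were below 4. Tbr1, a transcription factor of deep cortical neurons, led at 10.56, 10.94 and 11.12. Lmo4, a LIM domain protein of the cortex, followed at 9.76, 10.18 and 11.12, and Nrgn, a calmodulin-binding protein of dendrites, at 10.18, 9.13 and 9.48. Of 13 genes of GABA neurons 9 (69.2%) passed 6 in all animals. Slc32a1, which loads GABA into vesicles, read 9.77, 9.91 and 9.80, and the interneuron peptide Sst read 9.40, 8.90 and 8.18. The transcription factor genes Dlx1, at 6.56, 8.45 and 8.30, and Dlx2, at 3.04, 4.25 and 4.82, were lowest in control 1. Of 7 genes of striatal projection neurons 4 passed 6, led by Penk, the enkephalin precursor, at 11.63, 11.56 and 11.57. Penk was nearly equal in the 3 animals on this set, but another of its sets read 9.30, 8.71 and 8.35. Drd2, the D2 dopamine receptor, read 5.36, 5.37 and 4.81.

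Glial lists were also bright. Of 12 astrocyte genes 11 were at or above 6 in all animals, with array medians of 8.04, 8.18 and 9.05. Control 3 was below control 1 for 3 of the 12 and above it for 9. It was below for 54.9% of genes with a mean of 6 or above and for 42.8% of all genes. Gja1, a gap junction protein, read 11.49, 11.84 and 12.11. Glul, glutamine synthetase, read 7.52, 8.01 and 10.31, and Gfap, the astrocyte filament protein, 7.30, 7.25 and 8.16. Both were highest in control 3 with these sets, but the second set of Gfap read 6.86, 6.83 and 6.85. Clu, a secreted chaperone, was lowest in control 3 with its brighter set, at 10.32, 10.03 and 9.25, and highest there with its other set, at 8.12, 8.24 and 8.89. Of 10 oligodendrocyte genes 8 passed 6, with a median of 8.90, and of the other two Cnp lay under 4. Control 3 was below control 1 for 9 of the 10, against the same shares of 54.9% and 42.8%. Some of these differences were small, as for Mog at 8.66, 8.79 and 8.58 and Cnp at 2.69, 2.67 and 2.68. A range over 1 occurred for 2 of the 10. Of 4 precursor genes 3 passed, among them Pdgfra, the growth factor receptor of these cells, at 7.30, 7.43 and 7.02.

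Microglia and vessels gave lower signals. Of 12 microglial genes 5 (41.7%) passed 6, near the 36% of all genes, and the list median was 5.01, against 4.97 for all genes. Ctss, a lysosomal protease, led at 9.55, 9.85 and 9.57, followed by C1qa, a complement protein, at 8.36, 8.13 and 7.79. Another 5, among them Cx3cr1 and Itgam, lay below 4. Of 11 endothelial genes 3 (27.3%) passed 6, among them Cldn5, a tight junction protein, at 7.24, 7.29 and 6.32. None of 8 genes of pericytes and vascular smooth muscle did, and none of 3 ependymal genes. Of 5 blood genes only Hba-a1, an alpha globin, passed, at 9.93, 10.13 and 10.17. Among 6 measured globins 2 passed, and Hba-a1 led the second brightest, Hbb-b2, which is not on the blood list, by 2.53 ± 0.18.

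Markers of single brain regions and of glands were mostly low. The lists include forebrain regions, among them hippocampus, thalamus, hypothalamus and olfactory bulb, beside tissue outside the forebrain. Of 71 measured genes on 11 lists 8 (11.3%) were at or above 6 in all animals, against 36% of all genes. Below 4 in all animals were 46 (64.8%), against 38% of all genes, and the median over the lists was 3.40. Of 6 hippocampal genes 4 (66.7%) were below 4 in all animals and 2 (33.3%) were at or above 6. Of 7 thalamic genes 3 (42.9%) were below 4, near the 38% of all genes, and 2 (28.6%) were at or above 6. All 7 pituitary genes and 8 of 9 hypothalamic genes were below 4 in all animals. Avp, vasopressin, was the exception at 6.20, 5.99 and 5.91.

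The cerebellum had been removed, and its list was mixed, with 3 of 10 genes at or above 6 in all animals and 3 below 4. Gabra6, a receptor subunit of cerebellar granule cells, read 3.03, 3.07 and 3.05, and Cbln1, a granule cell synapse protein, 2.69, 2.66 and 2.73. Both were below 4 in every animal. Zic1, a transcription factor also active in the forebrain, read 9.33, 9.84 and 10.50. Pcp2, a Purkinje cell gene, read 7.35, 7.33 and 7.35 with a relaxed-rule probe set, while its other set read 1.17, 1.15 and 1.17. The dopamine transporter Slc6a3 read 1.59, 1.57 and 1.58, and Foxa2, a transcription factor of midbrain dopamine neurons, 2.16, 2.15 and 2.15, so both were at the low end. Of 7 measured genes on the list of these neurons, 4 (57.1%) were below 4 in all animals, against 38% of all genes. Aldh1a1 was the 1 gene at or above 6, at 8.68, 8.93 and 9.12, while its other set read 1.25, 1.23 and 1.25. Nr4a2 read 6.09, 5.86 and 5.33.

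Of 9 measured genes of olfactory bulb and neuroblasts, 4 had a range over 1 among the animals, against 7.6% of all genes, and none was at or above 6 in all animals. Th, tyrosine hydroxylase, read 3.93, 5.78 and 5.11, and Eomes, a transcription factor of bulb projection neurons, 3.76, 5.56 and 5.36. Nmb, a bombesin-like peptide, read 3.92, 4.60 and 5.08, and Sox11, a factor of immature neurons, 5.59, 5.95 and 6.65. Control 1 was the lowest for these 4. Not all of the rest shared that pattern, since Gpsm1, Slc6a3 and Trh were nearly equal in the animals. Cntn4, an adhesion protein, was highest in control 1 at 4.02, 3.70 and 3.74. Over the 9 genes the median difference of control 1 from the gene's mean was -0.27.

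Genes of other organs gave the low end. Of 74 measured genes of liver, muscle, pancreas and gut, testis, lymphocytes, kidney and skin, 59 (79.7%) were below 4 in all animals and 3 were at or above 6. The 3 were Ttr, transthyretin, which the choroid plexus also makes, at 9.46, 8.77 and 8.87, the keratin Krt10 at 7.47, 7.30 and 7.48, and Tnp1, a sperm nuclear protein, at 10.14, 10.06 and 9.54. The second sets of Krt10 and Tnp1 read 2.44, 2.44 and 2.45 and 2.79, 2.80 and 2.80. Alb, serum albumin, read 2.74, 2.73 and 2.76.

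**Figure D3:**
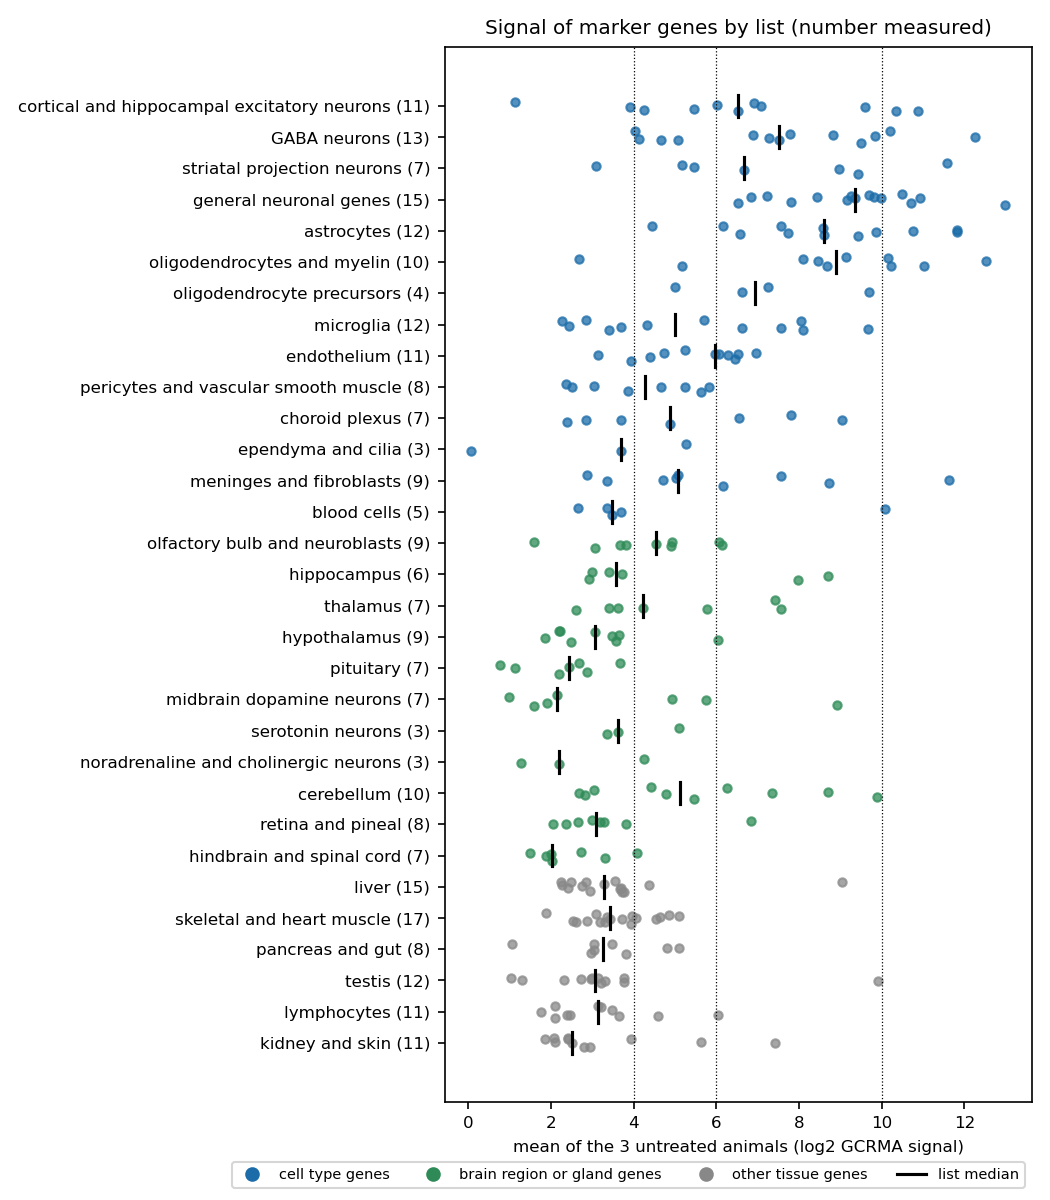
Mean log2 signal of the 3 untreated animals for each measured gene of the marker lists, with the list median as a bar and dotted lines at 4, 6 and 10. General neuronal genes have a median of 9.35 and astrocyte genes 8.60, whereas the pituitary list lies wholly below 4.

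In most gene families the leading member was the same in every animal. Of 38 families listed, 34 had at least 2 measured members. In 15 the brightest exceeded the second by more than 1 in every animal, and in 32 the order of these 2 was the same in every animal. In 27 families at least 1 member was under 4. A lead compares signals of different probe sets and has no test, since 3 paired values cannot give an exact two-sided p below 0.25.

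Glycolytic families held some of the widest leads. Pkm, pyruvate kinase of muscle and brain, read 11.45, 11.26 and 10.73 and Pklr, the liver and red cell enzyme, 2.74, 2.74 and 2.76, a lead of 8.40 ± 0.38 (SD, n = 3). Hk1, the brain hexokinase, led Hk2 by 6.23 ± 0.15, and Eno2, the neuronal enolase, led the muscle gene Eno3 by 5.94 ± 0.07. These leads differed among animals by far less than their size. Aldoa led Aldoc, the astrocyte aldolase, by 0.50 ± 0.15, and with the mean of all probe sets the order turned, at -0.33. The lactate dehydrogenases Ldha and Ldhb exchanged places, with Ldha minus Ldhb at -0.24, 0.51 and 0.25, and the testis gene Ldhc read 3.11, 3.19 and 3.13. Ckb, brain creatine kinase, led the mitochondrial Ckmt1 by 1.39 ± 0.44, and the muscle gene Ckm read 2.51, 2.56 and 2.52.

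Leads in mitochondrial and translation families varied in size. Slc25a4, a carrier that exchanges ADP for ATP, led Slc25a5 by 5.63 ± 0.11. Vdac2, a channel of the outer membrane, led Vdac3 by 0.30, 1.33 and 1.28 with a set of special suffix, and its other set gave the opposite order, at -5.87. Cox6a1, the broadly used subunit 6a of cytochrome c oxidase, read 12.63, 12.49 and 12.58, and its heart and muscle counterpart Cox6a2 read 4.64, 4.62 and 4.65. Eef1a1 led Eef1a2, the form of neurons and muscle, by 2.41 ± 0.20. Among transporters Slc2a3, the neuronal glucose carrier, led Slc2a1, the carrier of the blood-brain barrier, by 1.75 ± 0.34 on the brighter Slc2a3 set. The other Slc2a3 set read 6.51, 5.06 and 2.40, against 5.89, 5.98 and 6.05 for Slc2a1, so this lead differs with the set. Slc2a4, the carrier of muscle and fat, read 3.36, 3.43 and 3.34.

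Cytoskeletal families were closer. Tubb5, at 11.78, 11.64 and 11.61, and Tubb2a, at 11.70, 11.40 and 11.21, differed by 0.25 ± 0.16. Tuba1c led Tuba1a by 0.25 ± 0.12 on sets that may bind both. Actg1 led Actb by 6.89 ± 1.31, but the Actb set read 5.26, 5.35 and 7.50, while the Affymetrix control set for the 3′ end of Actb read 13.49, 13.24 and 12.76. The actin lead thus differs with the set used for Actb. Ina, the internexin filament, led Nefl, the light neurofilament, by 1.40 ± 0.56, and Vim, the filament of immature and mesenchymal cells, read 3.01, 3.01 and 3.09.

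Signalling and binding proteins showed graded use. The 14-3-3 genes Ywhah, Ywhaq and Ywhag all lay above 11.5, Ywhah over Ywhaq by 0.19 ± 0.19, and Sfn, the epithelial member, read 1.60, 1.58 and 1.61. Fabp7, the fatty acid binding protein of astrocytes and progenitors, led Fabp3 by 1.92 ± 0.85 and read 9.73, 10.53 and 10.74, whereas the liver gene Fabp1 read 2.42, 2.42 and 2.44. Car2, carbonic anhydrase of oligodendrocytes, led Car4 by 3.56 ± 0.19. App, the amyloid precursor, led Aplp2 by 2.47 ± 0.23. Mt1 led Mt3, the brain metallothionein, by 0.58 ± 0.38, and Mt4, a form of skin, read 2.94, 2.99 and 2.95.

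**Figure D4:**
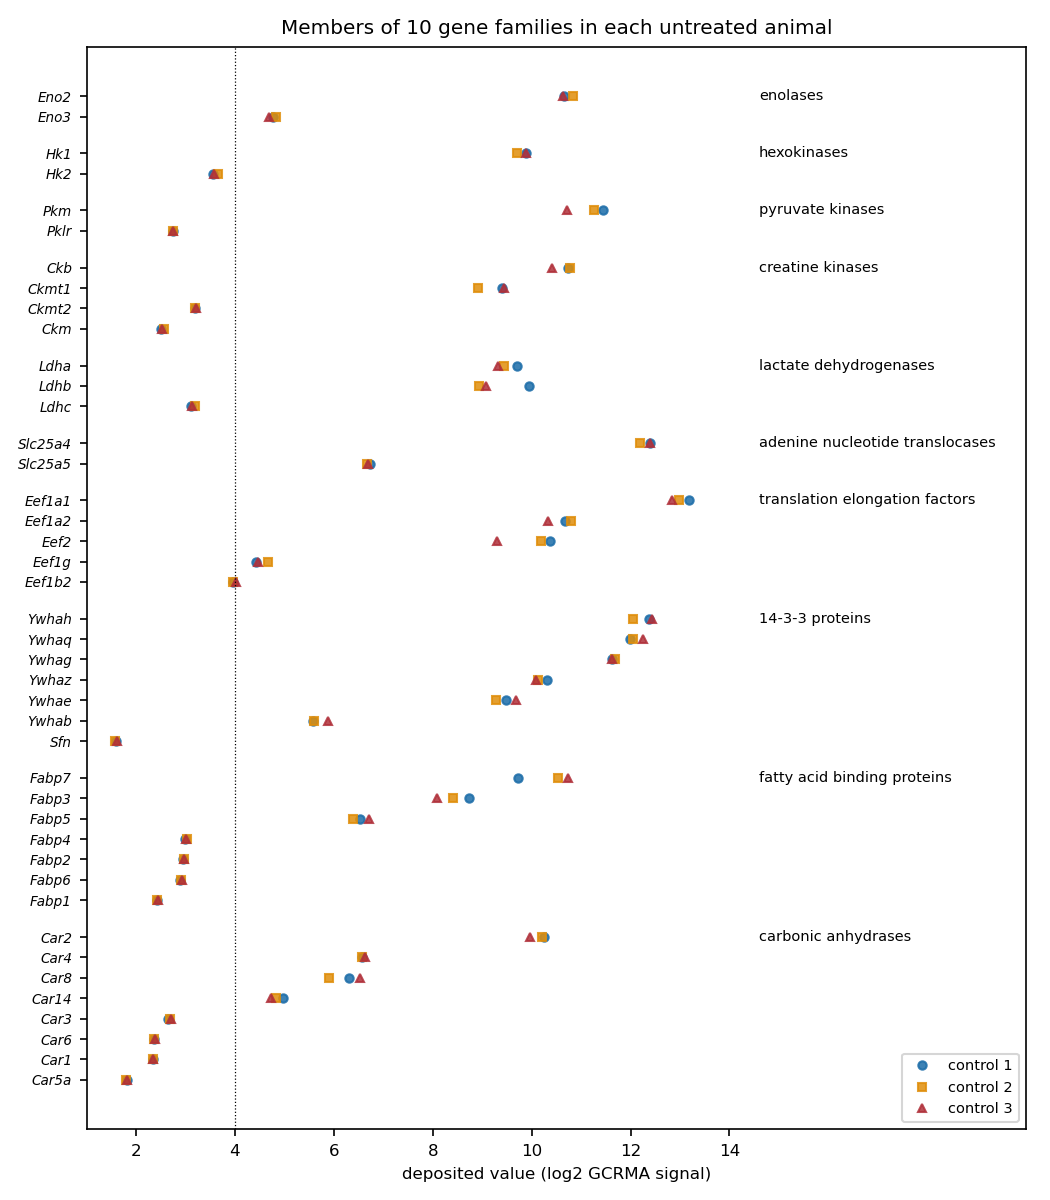
Deposited log2 signal of each measured member of 10 gene families in the 3 untreated animals, with a dotted line at 4. The leading member is the same in all 3 animals except for Ldha and Ldhb, and several members known from muscle, liver or testis, such as Ckm at 2.51 to 2.56, lie below 4, whereas Eno3 lies above it.

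Genes that varied among the 3 animals were separated mainly by control 3. Of 3229 genes with a mean of 6 or above, 12.8% (413) had a range over 1, that is a factor of 2 between the highest and lowest animal. Over all 8251 genes the share was 7.6% (627). Control 3 was the farthest from the other pair for 317 of the 413 (76.8%), against 52.7% of all genes with a mean of 6 or above, control 1 for 88 (21.3%) and control 2 for 8 (1.94%). Control 2 lay between the others for 360 (87.2%), against 58.0%. Control 3 was below control 1 for 238 and above it for 175, and it was below for 54.9% of the 3229 and for 42.8% of all 8251. Without control 3 the count of variable genes was 43, and without control 1 it was 160. The order of the arrays was also that of the mean 3′ to 5′ gap, 0.882, 1.46 and 1.73, and its part in the spread was not tested.

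Neuronal genes were among those lowest in control 3. Camk2a, a kinase of excitatory synapses, read 8.99, 6.68 and 3.87, and its second set read 8.29, 5.95 and 2.96. Both Camk2a sets had the same order of animals. Map2, a dendritic microtubule protein, read 7.63, 7.31 and 4.66, and Kif5a, a neuronal motor, 9.04, 7.96 and 4.74. Atp6v0a1, a subunit of the vesicle proton pump, read 9.06, 8.13 and 4.32, and Atp1b2, a sodium pump subunit of astrocytes, 9.14, 8.13 and 5.18. Timp2, an inhibitor of metalloproteases, read 7.91, 7.11 and 3.58. In each, control 1 was highest and control 3 stood more than 2 units below control 2 on the set named. The other sets did not repeat this for 4 of them. The second set of Kif5a read 4.88, 4.41 and 4.15. The second sets of Atp6v0a1, at 2.77, 2.77 and 2.79, and Atp1b2, at 2.73, 2.77 and 2.74, and that of Timp2, at 3.43, 3.46 and 3.44, were near background.

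Another set was highest in control 3. Gnb1, a G protein beta subunit, read 5.61, 5.97 and 10.73, although its other sets read 5.52, 5.85 and 6.33 and 6.56, 5.14 and 6.91. Cplx2, which controls vesicle fusion, read 5.66, 4.10 and 8.68, and Arglu1, a nuclear protein, 8.26, 7.48 and 10.76. Within the clozapine group Gnb1 read 7.40, 10.54 and 6.18, and within the haloperidol group 5.45, 11.31 and 6.06, so 1 array of each group stood high. The control probe set for the 3′ end of Gapdh with the suffix for the opposite strand read 5.24, 4.72 and 6.74 in the untreated arrays, 5.37, 6.98 and 5.42 under clozapine and 5.38, 7.12 and 4.35 under haloperidol. The same arrays were high for both, and its part in these values was not tested.

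In the genes named for control 1, it was set apart by lower values. Pbx3, a homeobox gene of olfactory and striatal neurons, read 8.03, 10.26 and 10.95, and its other sets 5.16, 6.18 and 5.79 and 4.78, 5.68 and 4.60. Gsdme, a gasdermin, read 7.91, 10.01 and 10.53, and Col4a1, a basement membrane collagen, 7.97, 9.04 and 9.94. All 12 genes named for control 1 were lowest in it on the set used. The second set of Gsdme read 5.43, 5.40 and 5.35, without that spread. Some other variable genes with control 1 farthest were highest in it, such as Ldhb at 9.95, 8.93 and 9.07. The direction over all genes with control 1 farthest was not counted. Where control 2 was farthest, ranges among the 12 named ran from 0.833 to 2.73. Erdr1 read 9.74, 8.13 and 10.87, and Calb2, calretinin, 7.30, 8.18 and 7.09. The last 4 of the 12, Mrpl39, Sf3a2, Capn7 and Wtap, had a range under 1.

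**Figure D5:**
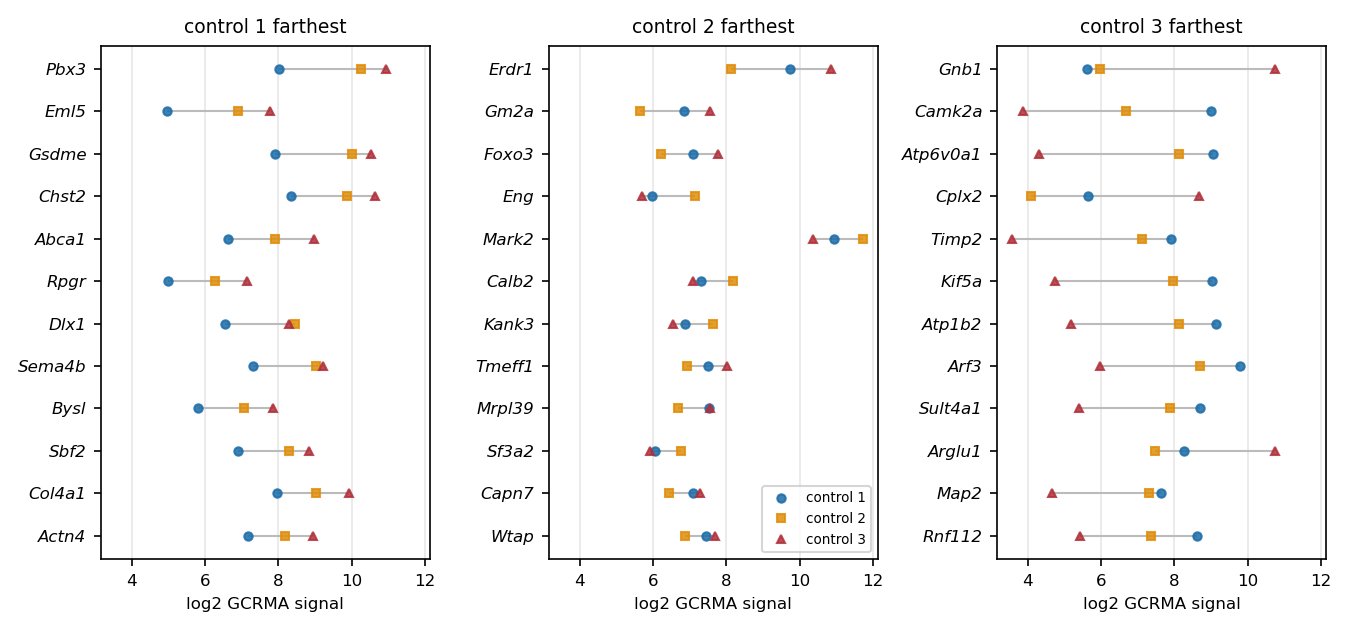
Deposited log2 signal in each untreated animal for 12 genes per panel, chosen as those with the largest SD for which control 1, 2 or 3 was farthest from the other pair. Control 3 departs most, with Camk2a from 8.99 to 3.87 and Gnb1 from 5.61 to 10.73.

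The variable genes had a range over 1 within the drug groups more often than all genes did. Within the clozapine group 4.18% of the 3229 genes (135) had a range over 1, and 87 of the 413 variable genes (21.1%) did. Within the haloperidol group it was 4.71% (152), and 69 of the 413 (16.7%). Without control 3 these counts of 87 and 69 were 27 and 16, and without control 1 they were 46 and 42. Of the 238 genes lower in control 3 than in control 1, clozapine 1 was the highest array of its group for 215 (90.3%), against 43.7% of the 3229, and haloperidol 3 for 187 (78.6%), against 37.5%. Mean 3′ to 5′ gaps were 0.892, 1.13 and 1.14 under clozapine and 1.30, 0.868 and 0.814 under haloperidol, so these 2 arrays had the smallest gap of their groups, as control 1 had of its own. Its part in the shared order was not tested.

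A second probe set of the same gene often did not show the spread. Of 68 further sets at 6 or above for 56 of the variable genes, 22 (32.4%) had a range over 1, against 76 of 298 sets (25.5%) of genes that were not variable. Control 3 lay on the same side of control 1 in 36 of the 68 (52.9%), against 154 of the 298 (51.7%). Without sets of special suffix the shares with a range over 1 were 12 of 42 (28.6%) and 45 of 153 (29.4%).

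The steadiest genes at a mean of 8 or above differed by hundredths of a unit on the set used. Scg5, a chaperone of prohormone convertase, read 9.85, 9.85 and 9.86 with an SD of 0.00472, and Marcks, an actin-binding substrate of protein kinase C, 9.39, 9.39 and 9.40 with an SD of 0.00491. Atp5a1, an ATP synthase subunit, read 12.06, 12.05 and 12.06. The 12 steadiest had SDs up to 0.0131, against a median of 0.217 for the 1353 genes at 8 or above. Rnf13 was 1 of the 12, yet its second set read 8.95, 8.40 and 7.03. The second sets of Zeb1, Map2k1 and Tuba4a lay under 4.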

How the data were processed

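Expression was measured in forebrain RNA, 1 animal per array. Each deposited value is a log2 signal of a probe set. The submitters' processing notes name GCRMA as the authors' tool, and its version and settings are not given in the sources used here. GCRMA normalises arrays together and compresses values near background.

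Of 12422 probe sets other than the 66 Affymetrix controls, 10833 carried 1 symbol, 396 several and 1193 none, and only the first were used. Symbols were updated through Entrez identifiers to the RefSeq table of GRCm38.p6 for 10817. Groups and numbers came from the titles. Means, SDs and ranges were computed with Python 3.11.15, NumPy 2.4.6 and pandas 2.3.3, and figures drawn with matplotlib 3.10.9. The steps were tested on simulated data. No test was made between groups.

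The rule for named genes took the 30 brightest, the 12 with the largest SD for each farthest animal, the 12 steadiest at a mean of 8 or above, and members of fixed lists. The genes and lists were chosen with earlier results of these data known. Alternatives were centring each array on its median, quantile normalisation, the median in place of the mean over arrays, values under 3 set to 3, the mean over all probe sets of a gene, leaving out special suffixes, other thresholds and leaving out each array.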

Additional observations from a re-analysis of the deposited data

How the results depend on the processing

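With the mean of all probe sets per gene, 64 of the 100 brightest genes stayed among them and 71 did without special suffixes, against 92 to 100 when 1 array was left out. Region genes at or above the threshold numbered 4 with the mean of all sets, 5 without special suffixes and 16 at a threshold of 5, against 8, and genes of other organs 5 at that threshold, against 3. Leaving out 1 array gave 43 to 384 variable genes, 27 to 78 of them variable under clozapine and 16 to 67 under haloperidol. At a range of 0.5 these counts were 1340, 578 and 623, at 1.5 they were 125, 23 and 18, and control 3 was farthest for 911 and 97. The lead reversed for Aldoa over Aldoc to -0.33, for Stmn1 over Stmn3 to -1.35 and for Vdac2 over Vdac3 to -2.45 with the mean of all sets, and for Vdac2 over Vdac3 to -5.87 without special suffixes. These 4 were the only reversals among 297 lead values tried, where only pairs with the same order in every animal could count as reversed. Ldha over Ldhb could not count. Nor could Pfn2 over Dstn, with leads of 0.36, -0.09 and -0.19 in controls 1, 2 and 3. No paired analysis was possible because the results come from no test. Signal near background limits every statement on genes below 4.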

Other observations

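Immediate early genes, which neurons switch on within minutes of activity, mostly gave signal in these untreated animals. Of 11 measured, 8 (72.7%) were at or above 6 in all 3 animals, against 36% of all genes. The list median was 6.83. Egr1, a zinc finger transcription factor, read 10.30, 10.31 and 10.37 in controls 1, 2 and 3. Fos, a subunit of the AP-1 factor, read 8.98, 9.14 and 9.55, and the nuclear receptor Nr4a1 read 7.76, 8.31 and 8.86. Egr1 was nearly equal in the animals, while Fos and Nr4a1 were lowest in control 1. Junb had the opposite order, at 7.19, 6.85 and 6.46. Control 3 was below control 1 for 6 of the 11 and above it for 5. It was below for 54.9% of genes with a mean of 6 or above and for 42.8% of all genes. Fosb read 4.69, 4.73 and 4.68. Among stress genes Hspa5, the chaperone of the endoplasmic reticulum, read 10.88, 10.35 and 10.28, and the inducible Hspa1a 6.36, 5.66 and 5.85.

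The 4 sets of Mobp, a myelin protein of oligodendrocytes, gave different spreads among the same animals. The brightest read 11.07, 11.04 and 10.93, and another read 10.73, 10.24 and 8.40.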
